A study of Mus musculus with 8 samples.

Results

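The 10 genes around Gadd45a are described here, those that lie within 25 Mb of Gadd45a on mouse chromosome 6 and had probes that differed from wild type in mouse embryonic fibroblasts labelled Gadd45a-/- or doubly knocked out. They are Nt5c3, Cbx3, Snx10, Npy, Gpnmb, Nod1, Tril, Gata2, Creb5 and Dysf. The 10 genes are 10 of 172 named genes tested in that window and of 8655 named genes tested in all. They were chosen by their differences between the Gadd45a-/- or DKO arrays and the WT arrays, so those differences are a description and carry no test. The array holds 21 probes for them, of which 14 passed the filter on dim probes, at least 1 for each gene. A probe passed when it was above background (detection p under 0.01) on both arrays of at least 1 genotype.

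RNA was measured on 8 one-colour Illumina arrays of fibroblasts grown out of male C57BL/6 embryos (E15.5) and collected confluent at passage 3. The 4 genotypes have 2 arrays each. They are wild type (WT), the single knockouts Gadd45a-/- and Ing1-/-, and the knockout of both genes (DKO). The design text speaks of duplicates for each fibroblast line. A genotype may thus rest on 1 line, in which case line and genotype cannot be told apart, and a p-value here speaks of array-to-array spread, possibly technical. The sources used here do not give how, or in which strain, the alleles were made. All 12 fibroblast markers examined, such as Col1a1, Pdgfra and Thy1, passed the same filter, with a summed normalized intensity of 113841 to 115014 in WT, 98173 to 103753 in Gadd45a-/-, 106871 to 108383 in Ing1-/- and 93376 to 97296 in DKO. By the brightest probe, Col3a1 was lower than WT in Gadd45a-/- (log2 difference -1.15 ± 0.2 SE, limma adjusted p = 0.0392). Pdgfra was lower than WT in DKO (-1.21 ± 0.13, limma adjusted p = 0.00295). In these comparisons no other fibroblast marker of the list was called. Between 14277 and 14778 of 45281 probes were above background on an array. Precision is limited by having 2 arrays in each genotype.

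Genes that sit next to each other on a chromosome are inherited together. A knockout made in the cells of one strain and then bred into another can keep a stretch of the first strain's chromosome around the targeted gene, and expression differences of genes in that stretch travel with the knockout allele whether or not they depend on the lost protein. A variant under a probe can also change its signal without a change in RNA, which is why the probes of one gene are compared here. Neither the strain of the flanking sequence nor the sequence of any probe was analysed, so whether any difference below comes from linked variants was not tested. In bulk RNA, fewer cells of a type and less RNA per cell cannot be told apart.

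The targeted gene was read first. Gadd45a probe 1, the brighter of a pair, read 10.93 and 10.71 in WT, 11.80 and 11.83 on the arrays labelled Gadd45a-/-, 10.12 and 10.15 in Ing1-/- and 11.80 and 11.69 in DKO (log2 normalized intensity). Probe 2 read 9.70 and 9.54, 10.83 and 11.00, 9.09 and 9.24, and 11.08 and 10.78 in the same order. Both probes were thus brightest on the arrays whose labels say that Gadd45a was deleted, and WT and Ing1-/- lay below them without overlap. The labels are not borne out by this signal, although a probe outside the deleted part of the gene would check nothing. Every direction below is drawn for the arrays as labelled.

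Nt5c3 showed the largest difference from WT among the genes above background on all 8 arrays. It encodes a cytosolic nucleotidase that removes the phosphate from pyrimidine nucleotides such as UMP and CMP, and its loss in people causes a haemolytic anaemia. Its single probe read 9.30 and 9.16 in WT and 9.13 and 9.20 in Ing1-/-, against 7.56 and 7.76 on the arrays labelled Gadd45a-/- and 7.70 and 7.84 in DKO (log2 normalized intensity). The 4 arrays with the Gadd45a-/- label formed a low group and the other 4 a high group, with no overlap. The log2 difference from WT was -1.57 ± 0.13 in Gadd45a-/- and -1.46 ± 0.13 in DKO (± SE, 2 arrays against 2), a 2.97-fold and a 2.75-fold lower signal. These are the contrasts that chose the gene.

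The promoter of Nt5c3 in the reference genome is shown because of the size of its difference, and that of Creb5 because Creb5 encodes a factor that binds the cAMP response element TGACGTCA and its own promoter window holds that element. The sequences are from RefSeq (GRCm38.p6), around an annotated start, and capitals mark matches to 4 motifs on either strand. The motifs are TGACGTCA, the E-box CACGTG, the GATA motif AGATAA and the CCAAT box.
Nt5c3, chr6:56901837-56902136, minus strand: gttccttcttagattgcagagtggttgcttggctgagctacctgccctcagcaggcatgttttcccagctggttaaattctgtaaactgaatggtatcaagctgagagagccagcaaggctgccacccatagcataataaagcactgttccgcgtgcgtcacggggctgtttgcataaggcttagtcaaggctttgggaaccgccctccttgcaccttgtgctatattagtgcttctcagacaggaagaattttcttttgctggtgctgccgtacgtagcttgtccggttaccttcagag
Creb5, chr6:53287053-53287352, plus strand: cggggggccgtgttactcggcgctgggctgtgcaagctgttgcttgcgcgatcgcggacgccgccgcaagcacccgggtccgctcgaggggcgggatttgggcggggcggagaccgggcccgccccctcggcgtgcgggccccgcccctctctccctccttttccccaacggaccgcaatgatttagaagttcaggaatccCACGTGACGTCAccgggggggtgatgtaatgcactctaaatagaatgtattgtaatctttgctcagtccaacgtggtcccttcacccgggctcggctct
The Creb5 window holds CACGTG and TGACGTCA overlapping in 1 run of capitals, and the Nt5c3 window holds none of the 4 motifs. Of 32851 promoter windows in the table, 1.79% hold TGACGTCA, 7.15% CACGTG, 11.2% AGATAA and 37.4% CCAAT. Among the 17 windows of the 10 genes, TGACGTCA and CACGTG were found in this 1 window of Creb5, AGATAA in 1 window of Cbx3, and CCAAT in 6 windows of Dysf, Gata2, Nod1, Npy and Snx10. A match is a description of the reference letters and not a bound site.

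**Figure D1:**
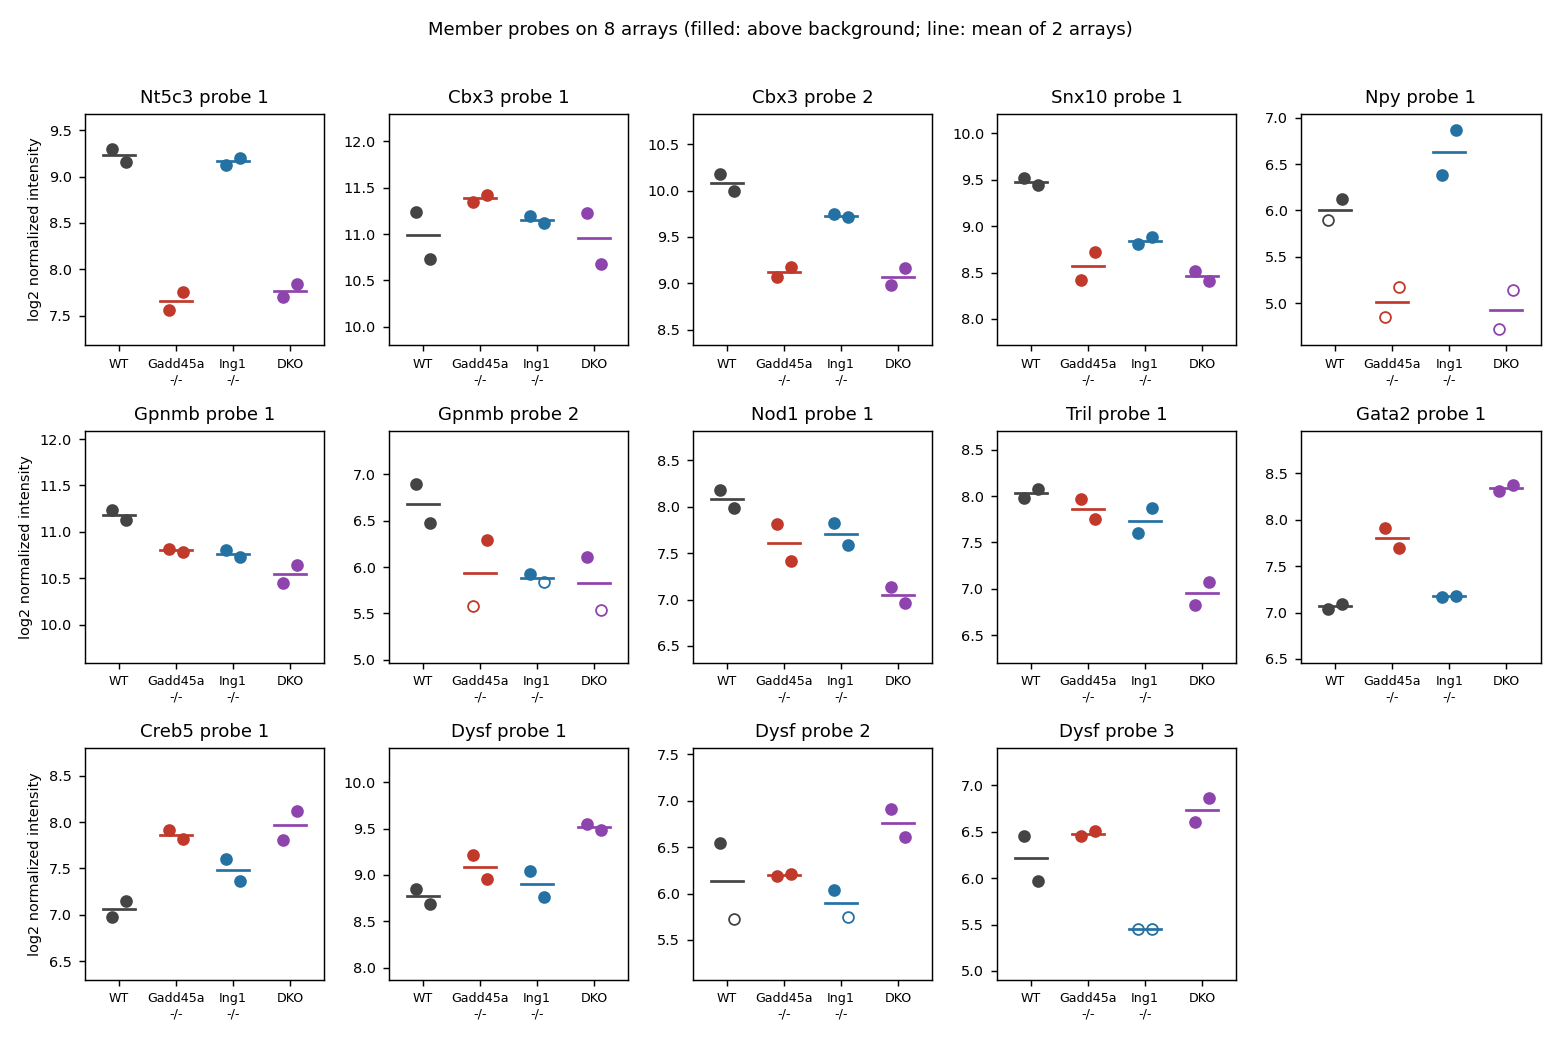
Log2 normalized intensity of the 14 member probes that passed the filter, one panel per probe, with 2 points per genotype (filled where the probe was above background on that array, open where it was not) and a line at the mean. Every panel spans the same number of log2 units. Nt5c3 splits the arrays by the Gadd45a label alone (9.13 to 9.30 against 7.56 to 7.84), while Snx10, Cbx3 probe 2 and Creb5 have Ing1-/- between WT and the other genotypes.

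Cbx3 encodes HP1-gamma, a chromatin protein that binds methylated histone H3. The probes of the gene gave different readings. Probe 2, designed to a RefSeq transcript, read 10.18 and 9.99 in WT, 9.07 and 9.17 on the arrays labelled Gadd45a-/-, 9.75 and 9.71 in Ing1-/- and 8.98 and 9.16 in DKO. The WT arrays were highest, the Ing1-/- arrays next, and the Gadd45a-/- and DKO arrays overlapped each other below them. Its difference from WT was -0.96 ± 0.13 in Gadd45a-/- and -1.01 ± 0.13 in DKO. Probe 1, designed to a cDNA clone and the brighter, read 11.24 and 10.73 in WT, 11.35 and 11.42 in Gadd45a-/-, 11.19 and 11.12 in Ing1-/- and 11.23 and 10.68 in DKO. Those arrays overlapped between WT and DKO, and the differences from WT were 0.40 ± 0.22 and -0.03 ± 0.22. Probe 3 was above background on 2 of 8 arrays and was not tested. The distance between the log2 differences of the tested Cbx3 probes was 1.36 in Gadd45a-/- minus WT and 0.98 in DKO minus WT. Among the 3083 named genes with at least 2 tested probes, 0.195% and 0.811% had a distance as large, and the median was 0.19. Probe differences in these same contrasts put Cbx3 on the list, so its rank is a description and no test. For Gpnmb 21.1% and 41.2% of those genes had a distance as large, and for Dysf 37.0% and 40.5%. The mouse gene table lists pseudogenes of Cbx3, so which transcripts each probe reads is uncertain.

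Snx10, which lies beside Cbx3 among the tested genes, encodes a sorting nexin of endosomes that is needed for bone resorption by osteoclasts. Its brighter probe read 9.52 and 9.44 in WT, 8.42 and 8.72 on the arrays labelled Gadd45a-/-, 8.81 and 8.88 in Ing1-/- and 8.52 and 8.41 in DKO. All 6 knockout arrays lay below both WT arrays, and the Ing1-/- arrays lay above the rest of them. The difference from WT was -0.92 ± 0.13 in Gadd45a-/- and -1.02 ± 0.13 in DKO. The other probe, designed to a cDNA clone, was above background on no array and gives no second reading.

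Npy encodes neuropeptide Y, a peptide transmitter of neurons. Its single probe was dim, with 5.90 and 6.12 in WT, 4.85 and 5.17 on the arrays labelled Gadd45a-/-, 6.38 and 6.87 in Ing1-/- and 4.72 and 5.14 in DKO. It was above background on 1 of the 2 WT arrays, on both Ing1-/- arrays and on none of the other 4. Because it was not well above background in Gadd45a-/- or DKO, its difference from WT is a bound: at least 1.08-fold and at least 1.05-fold lower. For the bound, an array of the lower genotype counts at the lowest signal above background on it, or at the probe's own signal where that is higher. The higher genotype enters as its plain mean. The WT mean of Npy includes an array below background, at 5.90, so these bounds against WT are not strict. Of 10 neuron markers on the array 7 were above background nowhere, Tubb3, Th and Dbh among them. Their summed normalized intensity was 657 to 666 in WT, 734 to 763 in Gadd45a-/-, 467 to 498 in Ing1-/- and 498 to 549 in DKO. Among them Gap43 was called, at -1.37 ± 0.15 in DKO minus WT (limma adjusted p = 0.00307) and -1.18 ± 0.15 in Ing1-/- minus WT (limma adjusted p = 0.0244), with -0.02 ± 0.15 in Gadd45a-/- minus WT. Their part in the Npy signal was not tested.

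Gpnmb encodes a membrane glycoprotein of melanosomes and of the lysosomes of macrophages. Its brightest probe read 11.23 and 11.13 in WT, 10.82 and 10.78 on the arrays labelled Gadd45a-/-, 10.80 and 10.73 in Ing1-/- and 10.45 and 10.64 in DKO. All 6 knockout arrays lay below WT, and the log2 difference was -0.38 ± 0.12 in Gadd45a-/- and -0.63 ± 0.12 in DKO. Probe 2 had 6.90 and 6.47 in WT and between 5.54 and 6.29 on the other arrays, with 1 of 2 arrays above background in each knockout, and the remaining 2 probes were above background nowhere. Both readable probes were lower in each knockout than in WT. Probe 2 passed the filter only through the WT arrays, where it is high, so it gives no independent second reading. Of 7 tested macrophage markers 6 rose in Gadd45a-/- (limma). The summed intensity of the 15 such markers on the array was 1149 to 1176 in WT, 2079 to 2160 in Gadd45a-/-, 1625 to 1776 in Ing1-/- and 1098 to 1144 in DKO, and 5 of them, including Adgre1 and Ptprc, were above background on no array. Of 10 melanocyte and neural crest markers 9 were above background nowhere, among them Pmel, Tyr and Mitf. The part of macrophages in the Gpnmb signal was not tested.

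Nod1 and Tril belong to innate immune sensing. Nod1 encodes a cytosolic receptor for fragments of bacterial peptidoglycan. Its probe read 8.18 and 7.99 in WT, 7.81 and 7.41 on the arrays labelled Gadd45a-/-, 7.83 and 7.59 in Ing1-/- and 7.13 and 6.96 in DKO. DKO was lowest, and the single knockouts overlapped each other below WT. Tril encodes a membrane protein that assists Toll-like receptors 3 and 4. Its probe read 7.98 and 8.08 in WT, 7.97 and 7.75 in Gadd45a-/-, 7.60 and 7.87 in Ing1-/- and 6.83 and 7.07 in DKO, so that both DKO arrays lay below all others. The log2 difference between DKO and WT was -1.04 ± 0.17 for Nod1 and -1.08 ± 0.15 for Tril, while in Gadd45a-/- it was -0.47 ± 0.17 and -0.17 ± 0.15.

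The other 3 genes were brighter in DKO than in WT. Gata2 encodes a transcription factor of blood stem cells and endothelium. Its probe read 7.04 and 7.09 in WT and 7.17 and 7.18 in Ing1-/-, against 7.91 and 7.70 on the arrays labelled Gadd45a-/- and 8.31 and 8.38 in DKO. The genotypes did not overlap, with DKO highest. The difference from WT was 0.74 ± 0.12 in Gadd45a-/- and 1.28 ± 0.12 in DKO. Of 9 endothelial and blood markers on the array 7 were above background nowhere, including Pecam1, Cdh5 and Kdr. The 1 tested marker of that list, Emcn, was not above background in WT. It was at least 2.43-fold higher in DKO (limma adjusted p = 0.00409) and at least 2.21-fold higher in Ing1-/- (limma adjusted p = 0.0252), while the bound in Gadd45a-/- was 1.52-fold (limma adjusted p = 0.08). The summed intensity of the list was 319 to 324 in WT, 362 to 364 in Gadd45a-/-, 389 to 402 in Ing1-/- and 387 to 423 in DKO. Its part in the Gata2 signal was not tested.

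Creb5 encodes a CREB-family transcription factor. Its probe 1 read 6.98 and 7.15 in WT, 7.91 and 7.82 on the arrays labelled Gadd45a-/-, 7.60 and 7.37 in Ing1-/- and 7.81 and 8.12 in DKO. Every knockout array lay above WT, with Ing1-/- between WT and the rest. The difference from WT was 0.80 ± 0.15 in Gadd45a-/- and 0.90 ± 0.15 in DKO. Its second probe was left out of the fit as dim, but was above background on Gadd45a-/- replicate 2 and DKO replicate 2 and read 5.00 and 4.93 in WT, 5.63 and 5.88 in Gadd45a-/-, 5.26 and 5.23 in Ing1-/- and 5.81 and 6.12 in DKO. On the WT and Ing1-/- arrays it was below background, so its values there have no order.

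Dysf encodes dysferlin, which reseals the membrane of muscle fibres, and has 3 readable probes of 5. Probe 1 read 8.85 and 8.69 in WT, 9.22 and 8.96 on the arrays labelled Gadd45a-/-, 9.04 and 8.76 in Ing1-/- and 9.55 and 9.49 in DKO. Probe 2 read 6.54 and 5.73, 6.19 and 6.21, 6.04 and 5.75, and 6.91 and 6.61 in the same order. Probe 3 read 6.46 and 5.97, 6.45 and 6.51, 5.45 and 5.45, and 6.61 and 6.86. All 3 were highest in DKO, whose differences from WT were 0.75 ± 0.15, 0.62 ± 0.25 and 0.52 ± 0.17. In Gadd45a-/- they were 0.32 ± 0.15, 0.06 ± 0.25 and 0.26 ± 0.17, and the arrays overlapped with WT at probes 2 and 3. In Ing1-/- the difference from WT was 0.13 ± 0.15 at probe 1 and -0.24 ± 0.25 at probe 2. Probe 3 was above background on neither Ing1-/- array, which makes it at least 1.26-fold lower there (limma adjusted p = 0.149). Skeletal muscle markers summed to 3377 to 3649 in WT, 3638 to 3786 in Gadd45a-/-, 3382 to 3603 in Ing1-/- and 4315 to 4588 in DKO, where Dysf was also highest. None of the 5 tested muscle markers was called in DKO minus WT or in DKO minus Ing1-/- (smallest limma adjusted p = 0.053 and 0.088). Of 10 muscle markers 4, including Myod1 and Myog, were above background nowhere, and the part of muscle-like cells in the Dysf signal was not tested.

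**Figure D2:**
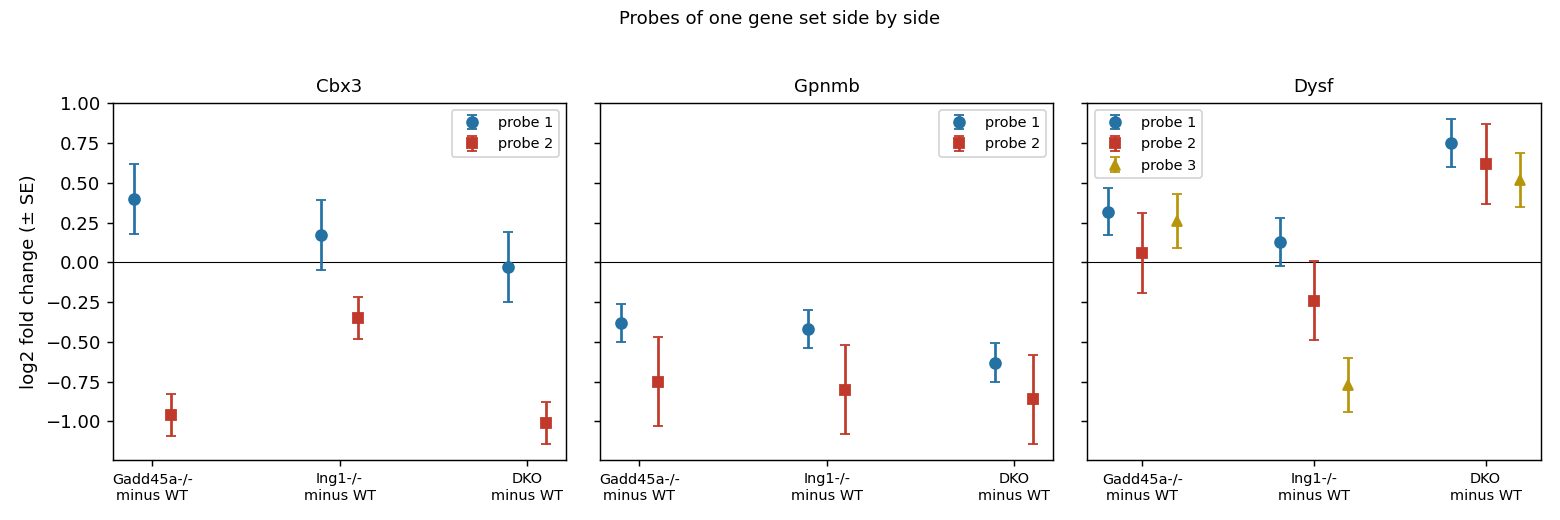
Log2 fold change from WT (± SE, 2 arrays against 2) of each tested probe of Cbx3, Gpnmb and Dysf in the 3 knockouts. Cbx3 probe 2 lies at -0.96 in Gadd45a-/- and -1.01 in DKO while probe 1 lies at 0.40 and -0.03, the Gpnmb probes lie on one side of 0, and the Dysf probes lie above 0 in DKO. Dysf probe 3 in Ing1-/- is drawn at its fitted value, below background. Gpnmb probe 2 passed the filter only through the WT arrays, where it is high.

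By the rule that chose them, 4 of the 14 probes passed an adjusted p of 0.05 in Gadd45a-/- minus WT (1.33% of all 14867 probes did) and 10 of 14 in DKO minus WT (3.8% of all probes), 1 for each gene. The groups did not overlap at 12 probes in the first contrast (39.5% of all probes) and at 13 in the second (45.9%). Nothing follows from these counts, since such differences put the genes on the list. What the choice did not use is the level in Ing1-/-, although any difference from WT shares the WT arrays with it. In Ing1-/- minus WT none of the 14 probes passed limma's test, against 0.417% of all probes. At an unadjusted p under 0.05 there were 7 of 14, against 10.7% of all probes. With a trended and robust variance 1 passed, Snx10 (limma adjusted p = 0.045). The Ing1-/- and WT arrays did not overlap at 10 of 14 probes, against 39.2% of all probes. The median log2 difference over the 14 probes was -0.27, against 0.01 over all probes.

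In Ing1-/- the 10 genes fell into unlike cases. Nt5c3 differed from WT by -0.06 (95% interval -0.35 to 0.23, limma adjusted p = 0.907) and Gata2 by 0.11 (-0.16 to 0.39, limma adjusted p = 0.791; -0.09 with median scaling, which moved the median of all probes to -0.18), and neither interval reaches the size of the difference in Gadd45a-/- or DKO. Npy pointed the other way, higher by 0.61 (0.11 to 1.11, limma adjusted p = 0.356). Snx10 at -0.63 (-0.94 to -0.33, limma adjusted p = 0.129), Gpnmb probe 1 at -0.42 (-0.69 to -0.14, limma adjusted p = 0.249), Cbx3 probe 2 at -0.35 (-0.65 to -0.06, limma adjusted p = 0.356), Nod1 at -0.37 (-0.76 to 0.01, limma adjusted p = 0.483) and Creb5 at 0.42 (0.07 to 0.77, limma adjusted p = 0.361) had the sign they have with the Gadd45a-/- label. These intervals are for single probes and are not adjusted for the number of probes. None of these differences passed the test.

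The comparison of DKO with Ing1-/- asks whether the difference seen with the Gadd45a-/- label was also there between cells that both lack Ing1. It shares no array with Gadd45a-/- minus WT but shares the DKO arrays with DKO minus WT, which helped choose the genes. Here 4 of 14 probes passed limma's test, against 1.11% of all probes, and the groups did not overlap at 12 of 14, against 44.5%. Because the DKO arrays helped choose the genes, these counts and the p-values below are no independent test of them. Nt5c3 was lower, with a log2 difference of -1.39 ± 0.13 (limma adjusted p = 0.00509), in 2 of 2 DKO arrays. Npy was at least 1.61-fold lower (limma adjusted p = 0.0158), but its probe passed the filter only through the Ing1-/- arrays, where it is high. Gata2 was higher by 1.17 ± 0.12 (limma adjusted p = 0.008). Dysf probe 3 was at least 1.79-fold higher (limma adjusted p = 0.0199), while Dysf probes 1 and 2, at 0.62 ± 0.15 and 0.86 ± 0.25, did not pass (limma adjusted p = 0.127 and 0.216). All 4 calls were lost when any 1 of the 4 Ing1-/- or DKO arrays was left out. With no filter on dim probes the call of Dysf probe 3 was also lost (limma adjusted p = 0.0586). Where an array was left out, the lone array of that genotype was assumed to vary like the others. The fitted log2 differences moved little, also for the 2 probes that give a bound: Nt5c3 stayed between -1.33 and -1.46 (limma adjusted p from 0.0501 to 0.0702), Gata2 between 1.13 and 1.20 (0.0713 to 0.107), Npy between -1.45 and -1.94 (0.0568 to 0.137) and Dysf probe 3 between 1.16 and 1.41 (0.11 to 0.174).

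The remaining genes did not pass the test between DKO and Ing1-/-. Tril differed by -0.78 ± 0.15 (limma adjusted p = 0.0657), Cbx3 probe 2 by -0.66 ± 0.13 (limma adjusted p = 0.0649) and Nod1 by -0.66 ± 0.17 (limma adjusted p = 0.149). Creb5 differed by 0.48 ± 0.15 (95% interval 0.13 to 0.83, limma adjusted p = 0.252). Snx10 differed by -0.38 ± 0.13 (-0.69 to -0.07, limma adjusted p = 0.308) and Gpnmb probe 1 by -0.22 ± 0.12 (-0.49 to 0.05, limma adjusted p = 0.553). Gadd45a-/- minus WT stood at -0.92 for Snx10, -0.17 for Tril and 0.74 for Gata2, beside -0.38, -0.78 and 1.17 in DKO minus Ing1-/-. The interaction in the same fit compares these differences between the Ing1 states. It is built from Gadd45a-/- minus WT and the DKO arrays, which chose the genes, so it is no independent test of them. It called none of the 14 probes, against 0.148% of all probes. At an unadjusted p under 0.05 there were 4 of 14, against 9.36% of all probes, and the trended and robust variance called none. The interaction was 0.18 ± 0.18 for Nt5c3, 0.53 ± 0.19 for Snx10, 0.43 ± 0.17 for Gata2 and -0.61 ± 0.21 for Tril. Their limma adjusted p ran from 0.457 to 0.814. It was larger at dim probes, with 1.03 ± 0.25 for Dysf probe 3, 0.80 ± 0.36 for Dysf probe 2 and -0.70 ± 0.31 for Npy. For Gpnmb probe 2, also dim, it was 0.69 ± 0.39. Dysf probe 3 had the smallest limma adjusted p of the 14, 0.257. Each of these fitted values rests in part on arrays below background.

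DKO minus Gadd45a-/-, which shares its arrays with both contrasts that chose the genes, called none of the 14 probes, against 0.39% of all probes (limma). At an unadjusted p under 0.05 there were 4 of 14, against 10.1% of all probes. With the trended and robust variance 1 passed, Tril, whose log2 difference was -0.91 (limma adjusted p = 0.0639, without that variance).

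**Figure D3:**
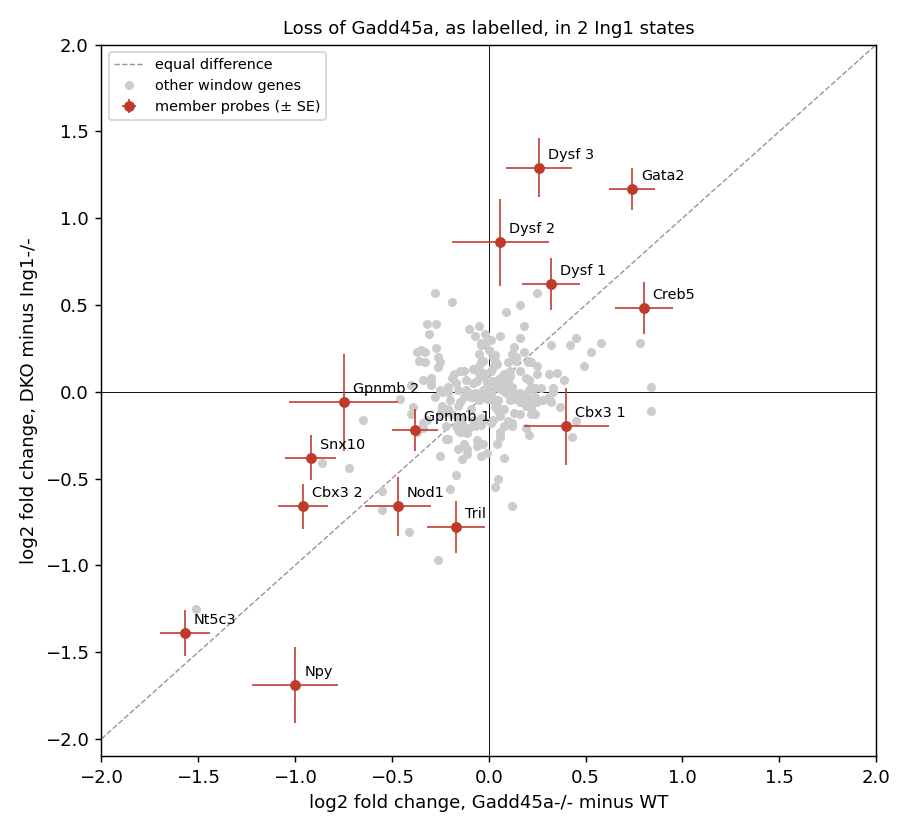
Log2 fold change of Gadd45a-/- minus WT (horizontal) against DKO minus Ing1-/- (vertical) for the 14 member probes (red, ± SE) and the other tested probes of the window (grey), with a dashed line of equal difference. The axes share no array. Nt5c3 lies near the line at -1.57 and -1.39, the 3 Dysf probes lie above it, and Cbx3 probe 1 has opposite signs. Npy and Dysf probe 3 are drawn at their fitted values, though each was below background in at least 1 genotype.

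In the order of genes on the chromosome, 8 of the 10 lie on one side of Gadd45a, the side of lower coordinates, and Dysf and Gata2 on the other. Nt5c3 was the closest to Gadd45a, with 8 tested genes between, followed by Nod1 with 17, Tril with 22, Creb5 with 23, Snx10 with 32, Cbx3 with 33, Npy with 40 and Gpnmb with 45. On the other side 54 tested genes lay between Gadd45a and Dysf and 83 between Gadd45a and Gata2. Nt5c3 lies more than 10 Mb from Gadd45a, and 37 other tested genes lie within 10 Mb of Gadd45a. At most the 8 genes between Nt5c3 and Gadd45a are on the side of lower coordinates, and most of the 37 are on the other. Of the 37 none was called in Gadd45a-/- minus WT or in DKO minus WT (limma). At an unadjusted p under 0.05 there were 6 of 37 in each, against 16.9% and 20.1% of all named genes, and the trended and robust variance called 1, Tmsb10, in DKO minus WT. Their log2 differences ran from -0.40 to 0.78 in Gadd45a-/- and from -0.40 to 0.74 in DKO, so that none reached the size of Nt5c3. The nearest tested genes on the 2 sides, Gng12 and Serbp1, differed by -0.01 and 0.20 in Gadd45a-/- and by 0.04 and 0.13 in DKO. At the edge of the window the outermost tested genes inside were Gstk1 (0.03 in Gadd45a-/- and 0.15 in DKO) and Ccdc174 (0.07 and -0.03), and the first outside were Trbv13-2 (-0.08 and -0.77) and Mrps25 (0.06 and -0.11), none of them called.

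Counting Gadd45a itself, 7 of the 172 tested genes of the window (4.07%) had a called probe in Gadd45a-/- minus WT, against 1.83% of all named genes tested, and 17 (9.88%) had one in DKO minus WT, against 5.03%. The window was chosen with these calls known, so its share is no test. Besides Gadd45a and the 10 genes, 2 of 161 genes were called in Gadd45a-/- minus WT and 6 in DKO minus WT. Of these, Hoxa5 and Hoxa7, homeobox genes of the HoxA cluster, were higher by 0.84 each in Gadd45a-/- and by 0.93 and 0.76 in DKO, and in Ing1-/- they differed by 0.91 and 0.88 without passing (limma adjusted p = 0.0504 and 0.071). For both genes all 6 knockout arrays lay above the WT arrays. Of the 4 tested HoxA genes 1 had a called probe in Ing1-/- minus WT (limma). It was the only window gene called there, and not by its brightest probe. Hoxa2 was called in DKO at 1 of its 2 probes, but that probe was above background on the WT arrays alone and passed the filter through them, so no difference is given. The coat protein gene Copg1 (0.72, 1 of 4 probes), the monoacylglycerol lipase gene Mgll (-0.76, 1 of 3 probes) and Chchd4 (0.53) were called in DKO minus WT (limma adjusted p = 0.0335, 0.0218 and 0.0356). Gsdme, which encodes a pore-forming gasdermin, was not called but was picked out after its values were seen. Its readable probe gave 7.50 and 7.46 in WT and 7.21 and 7.40 in Ing1-/-, against 6.10 and 5.85 on the arrays labelled Gadd45a-/- and 5.40 and 6.70 in DKO, with 1 array below background in each of the last 2 genotypes. The arrays divided as for Nt5c3, with a wider spread (limma adjusted p = 0.116 in Gadd45a-/- and 0.0762 in DKO).

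**Figure D4:**
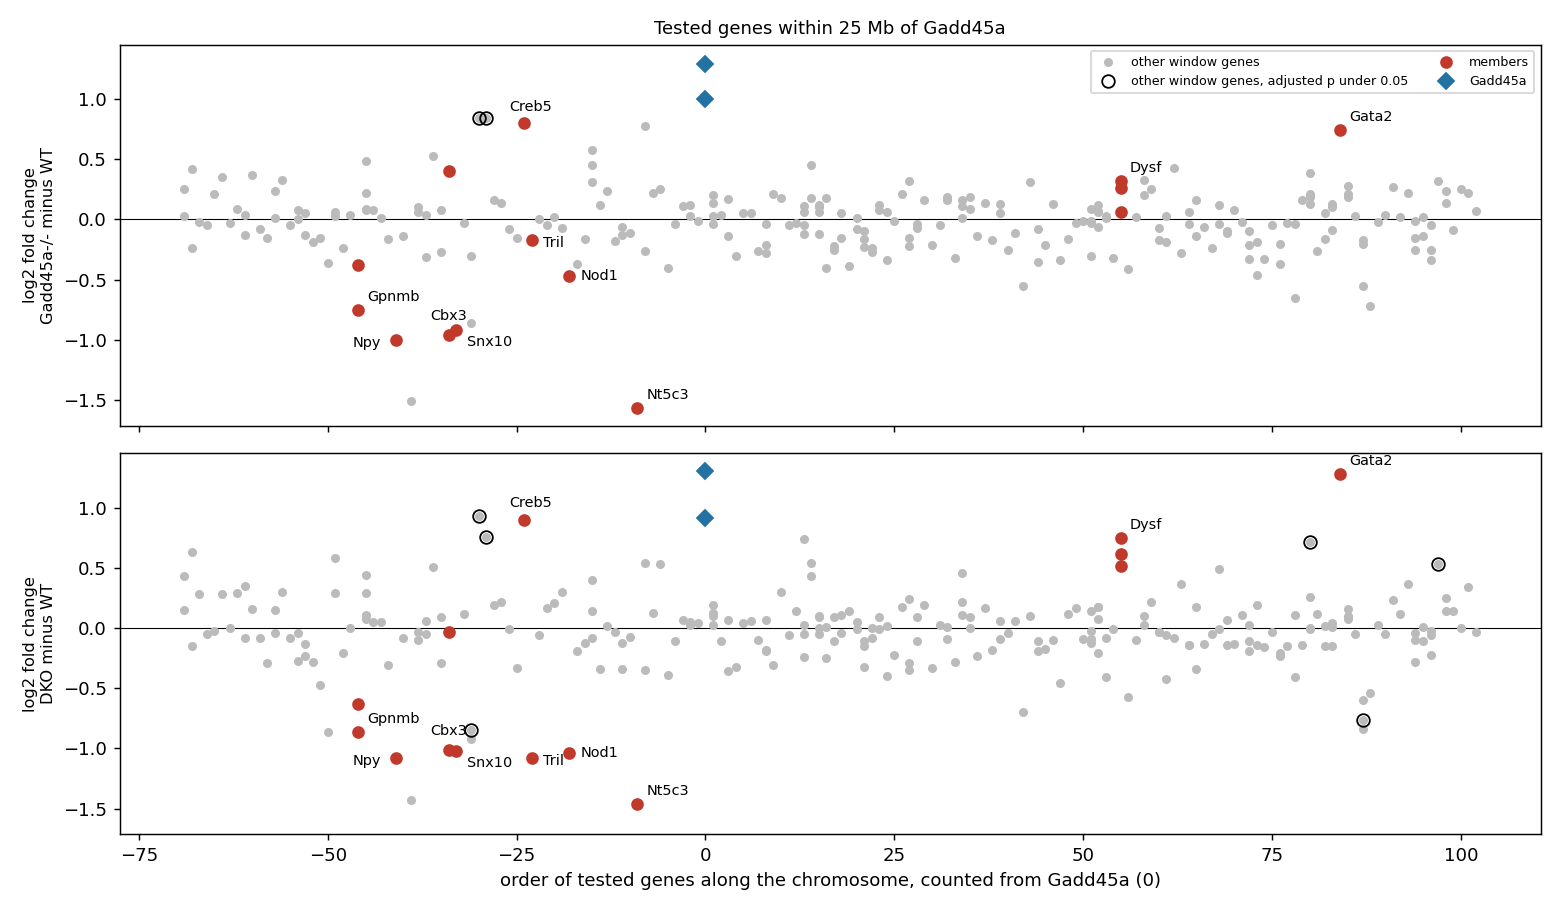
Log2 fold change of every tested probe within 25 Mb of Gadd45a in Gadd45a-/- minus WT (top) and DKO minus WT (bottom), in the order of genes along the chromosome with Gadd45a at 0. Red points are the 10 genes, blue diamonds Gadd45a, and ringed grey points other genes past an adjusted p of 0.05. The nearest neighbours of Gadd45a lie at -0.01 and 0.20 (top), Nt5c3 lies at -1.57 and -1.46, and 8 of the 10 genes lie on the left.

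Few relatives and partners of the 10 genes passed the test. Over the brightest probe of each gene, 7 lists had no call in Gadd45a-/- minus WT or DKO minus WT. They held 12 tested genes of pyrimidine salvage and nucleotide dephosphorylation and 4 of the HP1 and chromobox list (Cbx5, Cbx6, Cbx8 and Trim28). The rest were 23 genes of the sorting nexin list, 14 of the CREB and ATF list and 6 of membrane repair, such as Cav1 and Anxa2. To these come 9 genes of Toll-like receptors and co-receptors and 11 genes of NOD signalling. No methyltransferase and no ferlin was among these tested genes. Over all named genes 1.63% and 4.41% were called by the same probe rule. At an unadjusted p under 0.05 there were 8 and 12 of these 79 genes, against 13.0% and 16.5% of all named genes. The trended and robust variance called 2 and 1, Atf4 and Atf5 and then Atf5 alone, with log2 differences from -0.42 to -0.46. The medians of these lists lay between -0.19 and 0.21, against 0.01 over all genes in both comparisons. Among 5 tested GATA factors and partners Gata3 was called, higher by 1.13 ± 0.22 in DKO minus WT (limma adjusted p = 0.0336) and by 1.31 ± 0.22 in DKO minus Ing1-/- (limma adjusted p = 0.0389). Among 10 lysosomal and MITF-family genes the protease gene Ctsk was called, with -0.71 ± 0.11 in Gadd45a-/- (limma adjusted p = 0.0288) and -0.80 ± 0.11 in DKO (0.00902). Of the Npy receptors and related peptides Npy1r alone was tested, at 0.70 and 0.29, and was not called.

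The genes most like a member over the 8 arrays were listed for 4 of the 10 genes. The window holds 172 of the 8655 named genes tested. The 5 named for each leave out the 10 genes, while the top 20 may hold them. For Nt5c3 the 5 with the highest Pearson correlation were Mmp9 (0.963), Ip6k1 (0.960), Txnip (0.959), St7l (0.958) and Mogs (0.958). Of its top 20, 2 lay in the window, and 1 of these was another of the 10 genes. For Npy they were Tppp3 (0.966), Cdk5rap1 (0.964), Tmem119 (0.960), Calu (0.953) and Rnu6 (0.952). Here too 2 of the top 20 lay in the window, 1 of them another of the 10 genes. Gpnmb was closest to Lum (0.983), Ttc3 (0.982), Mmp13 (0.972), Hoxd8 (0.972) and Parp14 (0.970), with 0 of 20 in the window. The brightest Cbx3 probe, which was not the one that differed, was closest to Prrc2c (0.974), Man1a2 (0.968), Gtf3a (0.965), Dctn2 (0.956) and Fat1 (0.949), with 1 of 20 in the window. Among the 10 genes, Nt5c3 correlated at 0.92 with Npy, 0.82 with Snx10 and -0.90 with Gata2, and at 0.52 with Tril. These correlations run over 8 arrays that share genotypes and lines, and are a description. The 10 genes were chosen for differences between these same arrays, so correlations among them follow in part from the choice. Npy was above background on 3 of the 8 arrays, so its correlations rest largely on values below background.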

How the data were processed

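The authors deposited a table with the average bead intensity (linear) and the detection p-value of every probe on every array, per the file headers, and a second table of processed intensity values whose method is not stated; 34.5% of its values lie below 0, and it served as an alternative. GenomeStudio 2011.1 is named in the submitters' processing notes, without its role. Intensities were corrected with normexp (negative controls inferred from detection p-values, offset 16), quantile normalized and taken to log2 (neqc, limma 3.58.1, R 4.3.3). The 14867 of 45281 probes above background on both arrays of at least 1 genotype were fitted with 1 mean per genotype over all 8 arrays (lmFit, then eBayes, with 4 residual and 3.79 prior degrees of freedom). Within each comparison the Benjamini-Hochberg adjustment ran over all probes (threshold 0.05). The fit was also run on simulated data with independent noise and shifts in Gadd45a-/- alone. Such data hold no line effect, so they cannot speak to the case of 1 line per genotype. Of the probes 34885 had 1 gene symbol, 18 several and 10378 none, and 34807 matched the mouse gene table (GRCm38.p6), used for names and gene order. Replicates of a genotype correlated at 0.988 (WT) to 0.994 (DKO). Members, lists and tests were chosen with earlier results of these data known. Named besides the members are Gadd45a, called window genes whose groups do not overlap (up to 10), neighbours of Gadd45a and of the window edge, up to 2 called genes per partner list and the 5 most correlated genes of 4 members. Outside that rule, Gsdme was named after its values were seen. Some genes of the marker and partner lists, and genes called only with the trended and robust variance, are named as well. Alternatives covered background correction, offset, scaling, the authors' processed values, filters, the variance model, a replicate block, the window and each array left out. Replicate numbers were not taken to pair arrays across genotypes. Deviations of same-numbered arrays correlated from -0.092 to 0.276. The sample titles do not say whether same-numbered arrays were handled together.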

Additional observations from a re-analysis of the deposited data

Results flagged for a closer look

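Creb5 probe 2 was left out of the fit as it was not above background on both arrays of any genotype. It was above background on 2 arrays, 1 of Gadd45a-/- and 1 of DKO, and on no WT array. Its intensity lay near the background everywhere, and no difference was tested.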

How the results depend on the processing

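With 2 arrays in each genotype, leaving out an array leaves 1 array of that genotype, and the signal of Npy, Gpnmb probe 2 and Dysf probes 2 and 3 lay close to background. Over all probes, 198 were called in Gadd45a-/- minus WT, 565 in DKO minus WT, 62 in Ing1-/- minus WT, 165 in DKO minus Ing1-/-, 58 in DKO minus Gadd45a-/- and 22 in the interaction. Without background correction these counts were 298 in Gadd45a-/- minus WT, 124 in Ing1-/- minus WT, 262 in DKO minus Ing1-/-, 93 in DKO minus Gadd45a-/- and 38 in the interaction, and with a trended and robust variance 335, 140, 280, 110 and 40. With no filter on dim probes, which adds probes to the adjustment, they were 87, 317 (DKO minus WT), 20, 56, 17 and 6. Ing1-/- minus WT gave 95 with an offset of 50 and 118 with median scaling, DKO minus Gadd45a-/- gave 26 with a detection p under 0.05, and the interaction gave 11 with that filter and 12 over probes detected on all 8 arrays. Leaving out 1 array at a time gave 37 to 140, 140 to 496, 7 to 24, 5 to 178, 4 to 74 and 1 to 18 calls in the 6 comparisons.

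Window genes with a called probe, 7 in Gadd45a-/- minus WT, 17 in DKO minus WT, 1 in Ing1-/- minus WT and 5 in DKO minus Ing1-/-, numbered 11 (Gadd45a-/- minus WT), 4 (Ing1-/- minus WT) and 8 (DKO minus Ing1-/-) both without background correction and with the trended variance. With no filter they numbered 3, 10 and 0 in the comparisons with WT. They numbered 3 in Ing1-/- minus WT and 8 in DKO minus Ing1-/- with an offset of 50, 3 in DKO minus Ing1-/- over probes detected on all arrays, 1, 1, 0 and 1 within 10 Mb, 0 in Ing1-/- minus WT by the brightest probe, and 1 to 5, 3 to 16, 0 and 0 to 5 with an array left out. The 4 member probes called in DKO minus Ing1-/- became 7 without background correction or with the trended variance, 2 over probes detected on all arrays and 0 to 4 with an array left out. In Ing1-/- minus WT the count of 0 became 1, Snx10, without background correction or with the trended variance, and stayed 0 with any array left out.

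Estimates near 0 changed sign. Cbx3 probe 1 in Ing1-/- minus WT was -0.03 with median scaling and -0.09 to 0.43 with a WT array left out, and in DKO minus Ing1-/- -0.48 to 0.08 with a DKO array left out. In Ing1-/- minus WT, Nt5c3 was -0.14 to 0.01 and Dysf probe 2 -0.65 to 0.17 with a WT array left out, Dysf probe 1 was -0.09 with median scaling and -0.01 to 0.26 with an Ing1-/- array left out, and Gata2 was -0.09 with median scaling. Gpnmb probe 2 in DKO minus Ing1-/- was -0.35 to 0.23 with a DKO array left out. Median scaling moved the median of all probes to -0.09, -0.16 and -0.18 in Gadd45a-/-, DKO and Ing1-/- minus WT, and the share of calls that were higher from 69.7% to 48.0%, 48.7% to 25.8% and 48.4% to 13.6%. Of the values recomputed under an alternative, 985 kept their direction and side of the threshold or moved little. The causes of these changes were not tested.

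Replicate numbers are shared between genotypes but were not taken to pair the arrays. With the replicate number as a block the counts over all probes were 172, 547, 47, 138, 49 and 10, the window counts 5, 16, 1 and 5, and the member counts 0 in Ing1-/- minus WT and 4 in DKO minus Ing1-/-.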
